A study of Mus musculus with 9 samples.

Results

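Striated muscle contracts through the sarcomere, a repeating unit bounded by Z-discs, where actin thin filaments are anchored, and centred on the M-band, where myosin thick filaments are cross-linked. A scaffold of giant proteins, filament caps, cross-linkers and anchoring proteins sets the length and register of the filaments, and chaperones and ubiquitin ligases control its turnover. Heart and skeletal muscle share most of this scaffold and differ in which member of several gene families they use. The 44 genes described here were listed for this role: sarcomere scaffold, Z-disc, M-band, thin filament and muscle turnover genes. Where several probe sets carried a gene's symbol alone, the one of highest average signal across the 9 arrays stands for the gene. That left 42 genes of 18193 on the arrays, since Xirp2 and Trim55 had no such probe set. Of the 42, 41 were tested, and Myoz3, which lay under the low-signal line in every group, was not.

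The series compared 3 groups of mouse cells, with 3 arrays each, labelled as biological replicates. The CiCM group holds cardiomyocyte-like cells made from mouse embryonic fibroblasts with chemicals. The cocktail held 10 µM CHIR99021 (an inhibitor of glycogen synthase kinase), 10 µM RepSox (a TGF-β receptor inhibitor), 50 µM forskolin (an activator of adenylyl cyclase), 0.5 mM VPA (valproic acid, a histone deacetylase inhibitor), 5 µM Parnate (tranylcypromine, a monoamine oxidase inhibitor) and 1 µM TTNPB (a retinoic acid receptor agonist). Beating clusters were picked on day 24, so these arrays describe cells selected for beating. The CM group holds cardiomyocytes taken directly from mouse heart, of a strain and age not given in the sources used here. The MEF group holds the fibroblasts themselves, from C57BL/6 embryos at embryonic day 13.5. CiCM cells differ from MEF in all 6 agents and in time in culture together, and CM and MEF differ in tissue of origin as well as in cell type. The arrays measured total RNA of cell populations, in which fewer cells of a type and less RNA per cell cannot be told apart. No scan date or array batch was used here, and batches and groups cannot be told apart.

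Signals are log2 values; those of different genes come from different probes and are not set against each other. Array medians lay between 6.37 and 6.85, and the low-signal line was the median of the table, 6.58. A gene was called higher or lower where limma's adjusted p was below 0.05 and the log2 difference reached 1 in size. Pearson correlations between arrays of a group were 0.965 to 0.969 in CiCM, 0.930 to 0.953 in CM and 0.971 to 0.975 in MEF. CM replicate 1 stood apart from the other 2 heart arrays. Its signal of Myl7, an atrial myosin light chain, was 15.05, against 9.25 and 5.98, and its signal of Nppa, an atrial peptide hormone, was 15.24, against 12.50 and 12.05. Among the 42 sarcomere genes this array was the lowest of the CM arrays for 22 and the highest for 10. These counts have no share over all genes beside them.

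Marker genes were checked for each label, as sums of linear signals. The 10 cardiomyocyte markers summed to 34043 to 34310 in CiCM, 262395 to 293460 in CM and 360 to 552 in MEF. All 10 were lower in CiCM than in CM, 6 exceeded MEF in CiCM by limma's call, and 4 had a CiCM mean at or above the line. Tnnt2, the cardiac troponin T, read 14.46 to 14.55 on the log2 scale in CiCM, 15.36 to 15.89 in CM and 7.18 to 7.99 in MEF, and Myl2, a ventricular and slow-fibre myosin light chain, read 13.22 to 13.41 in CiCM, 15.01 to 15.60 in CM and 4.02 to 5.89 in MEF. The CiCM sum came almost wholly from Tnnt2 and Myl2. Others were near or under the low-signal line in CiCM, the highest mean among them being 7.13, of Myh6. Ryr2, the calcium release channel of heart, read 4.71 to 5.94 in CiCM and 13.91 to 14.34 in CM, and Tnni3, the cardiac troponin I, read 5.02 to 6.80 in CiCM and 14.87 to 15.33 in CM. The 10 skeletal muscle markers, among them Myod1, Myog and Mymk, summed to 131542 to 145681 in CiCM, 537 to 636 in CM and 248 to 302 in MEF, and all 10 were called higher in CiCM than in either other group. The lists thus go in part against the label of cardiomyocyte-like cells, and the group is named here by its code alone. Fibroblast markers (8 genes) summed to 106369 to 111159 in CiCM, 36425 to 47906 in CM and 95329 to 97341 in MEF. Against MEF, 2 of these were called higher and 1 lower in CiCM, and 2 higher and 6 lower in CM. Endothelial markers (6 genes) summed to 179 to 223 in CiCM, 11113 to 12318 in CM and 426 to 682 in MEF. All 6 were called higher in CM than in MEF and lower in CiCM than in CM, and 1 was lower in CiCM than in MEF. Macrophage markers (6 genes) summed to 1278 to 1626 in CiCM, 7208 to 8285 in CM and 8161 to 8572 in MEF. Against MEF, 6 of these were called lower in CiCM and 2 in CM. In CM, 6 endothelial, 8 fibroblast and 5 macrophage markers had means at or above the line. Smooth muscle markers (6 genes) summed to 25733 to 32074 in CiCM, 6715 to 10697 in CM and 51526 to 52646 in MEF, with 1 of 6 lower in CiCM and 4 of 6 lower in CM than in MEF. The part of these lists in the differences below was not tested.

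Sarcomere scaffold genes were high in both muscle groups. In CiCM against MEF, 33 of the 41 tested genes were higher and 2, Fhl2 and Pdlim7, were lower, with a median log2 difference of 7.13. Over all 12559 tested genes 11.6% were called higher and 12.2% lower in that comparison, and the median difference was -0.03. In CM against MEF, 32 were higher and 4 lower (Pdlim7, Tpm2, Tpm3 and Actn3), with a median of 5.02. The shares over all tested genes were 22.1% higher and 21.8% lower, with a median of -0.03. Both comparisons share the MEF arrays. A muscle gene that passed the low-signal line only through a muscle group had to differ from MEF, so these counts describe the list and carry no weight beyond that. Of the 33 genes higher in CiCM, 25 had MEF means under the line, where array noise is large on a log2 scale: the median SD of the 42 genes was 0.13 in CiCM, 0.28 in CM and 0.77 in MEF. With 32 added to the linear signals the median difference was 5.69 for CiCM minus MEF and 4.16 for CM minus MEF.

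**Figure D1:**
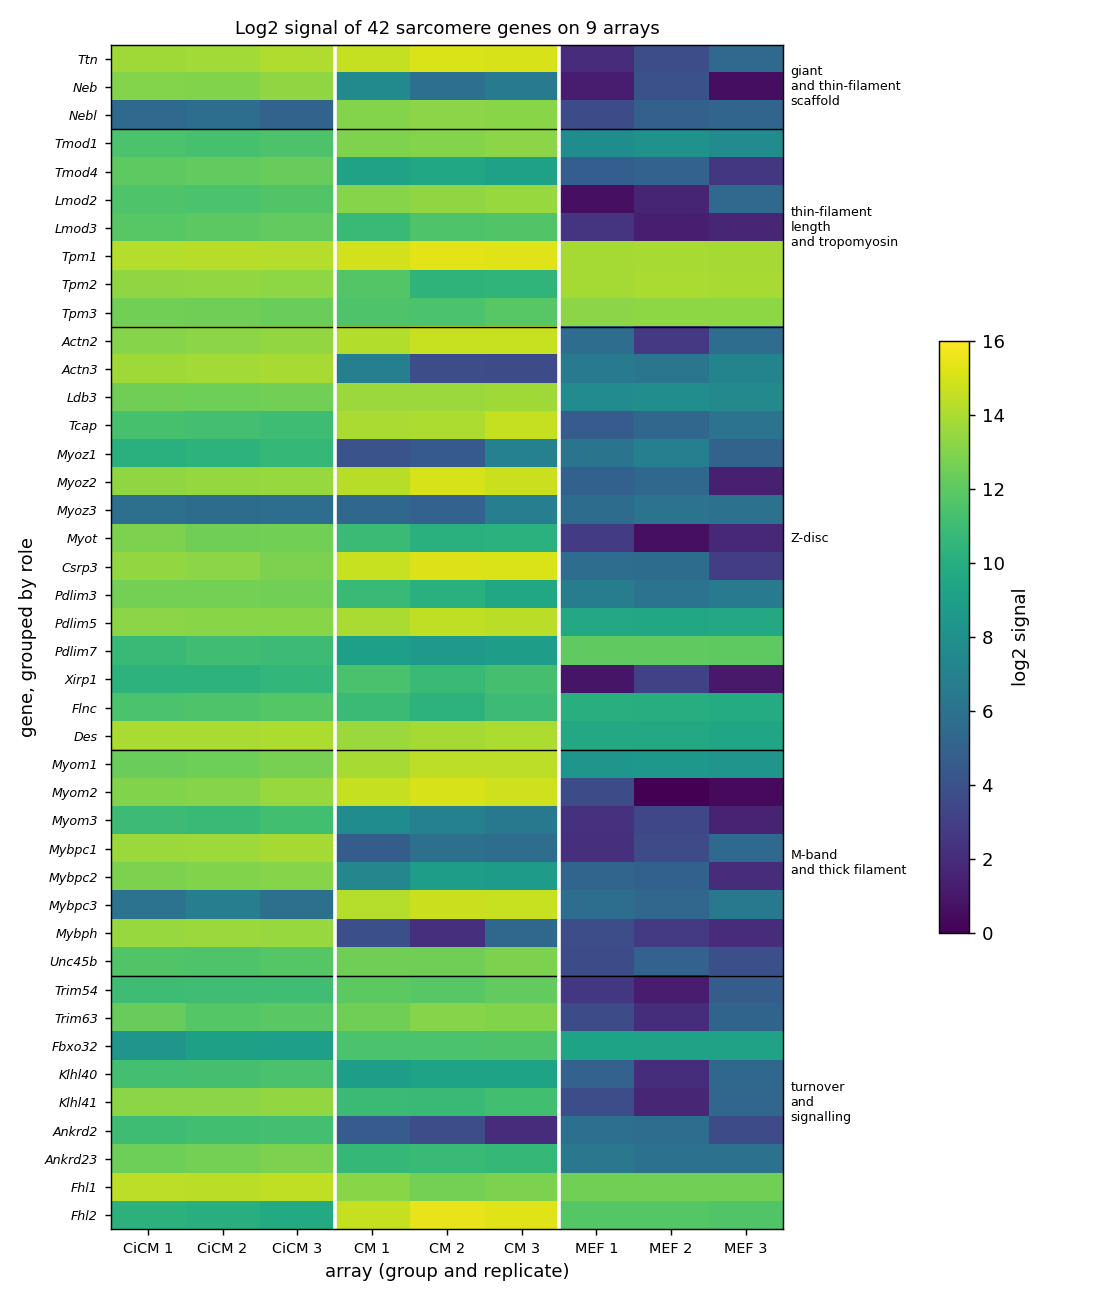
Log2 signal (colour) of the 42 genes (vertical axis, grouped by role) on each of the 9 arrays (horizontal axis, CiCM, CM and MEF with 3 replicates each). Most genes are bright in CiCM and CM and dark in MEF; Nebl and Mybpc3 are dark in CiCM, and Actn3, Mybpc1, Mybph and Ankrd2 are dark in CM.

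The 2 muscle groups differed from each other in both directions. In CiCM against CM, 17 of 41 genes were higher, 10 were lower and 14 were not called, with a median log2 difference of 0.19. Over all tested genes 16.5% were higher and 19% lower, with a median of -0.03. All 3 CiCM arrays lay above all 3 CM arrays for 20 genes and below them for 20, and Des was the only gene whose arrays overlapped. Without overlap, 33.5% of all tested genes lay above and 34.4% below. The differences ran from -8.26 for Mybpc3 to 9.74 for Mybph. Mybpc1, Mybph, Ankrd2 and Myoz1 passed the low-signal line only through CiCM, and Nebl and Mybpc3 only through CM. Having passed it that way, these genes had to differ between the 2 muscle groups. Their calls and p values here and below describe the list and carry no weight beyond that. In a fit of these 2 groups alone, without the noise of MEF, 17 genes were higher (16.1% of all tested genes) and 15 lower (19%), the added ones being Ttn, Lmod2, Actn2, Myoz2 and Myom2. Scaling moved the median: levelling the arrays on 18 control probe sets for hybridisation shifted all genes by a median of 0.58 for CiCM minus CM and -0.80 for CM minus MEF, and centring array medians shifted them by 0.31 and -0.37. CiCM minus MEF moved by -0.23 and -0.06.

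Among the giant filament scaffolds, the shared gene and the family members of each tissue behaved differently. Ttn encodes titin, the elastic protein that runs from the Z-disc to the M-band. Its signals were 13.73, 13.79 and 14.12 in CiCM, 14.59, 15.08 and 15.05 in CM and 2.04, 3.86 and 5.47 in MEF. All arrays of both muscle groups lay far above MEF, and the CiCM arrays lay just below those of CM. Ttn was higher than in MEF by 10.09 in CiCM (95% limits 8.68 to 11.50, limma adjusted p = 5.29e-07) and by 11.12 in CM (9.71 to 12.53, limma adjusted p = 8.19e-08). CiCM minus CM was -1.03 (-2.44 to 0.38, limma adjusted p = 0.177) in the fit of all 9 arrays, whose shared spread includes the noisy MEF values. In a fit of those 2 groups alone the limits were -1.42 to -0.64 (limma adjusted p = 0.000825), and Ttn was called lower in CiCM, as it was in the fit of all groups without MEF replicate 1 or 3. The difference of -1.03 lay just past the minimum size. Centred medians and levelled controls shifted all genes in this comparison by a median of 0.31 and 0.58. Of the 5 tested Ttn probe sets, 3 were called lower in CiCM than in CM, and all 5 were higher in both muscle groups than in MEF.

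Neb encodes nebulin, the ruler protein along skeletal muscle thin filaments, and Nebl encodes nebulette, its shorter relative at the cardiac Z-disc. Neb signals were 13.05, 12.96 and 13.32 in CiCM, 7.57, 5.83 and 6.67 in CM and 1.20, 3.96 and 0.62 in MEF. The CiCM arrays lay above all others, and the CM arrays lay around the low-signal line. Neb was higher in CiCM than in CM by 6.42 (4.77 to 8.07, limma adjusted p = 2.64e-05). Against MEF, CM differed by 4.76, called higher, and 1.86 with 32 added to the signals, and with 4 times that constant it was 0.83 and not called.

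Nebl showed the opposite order, with 5.50, 5.81 and 5.07 in CiCM, 13.01, 13.22 and 13.18 in CM and 3.67, 4.90 and 5.21 in MEF. Signals in CiCM overlapped those in MEF and were under the line, while all CM arrays were high. The difference of CiCM minus CM was -7.68 (-8.49 to -6.88, limma adjusted p = 4.54e-08), and CM minus MEF was 8.55. CiCM minus MEF was 0.87 (0.06 to 1.67, limma adjusted p = 0.0677). Without MEF replicate 3 that difference was 1.17 and called. The 2 other Nebl probe sets were also lower in CiCM than in CM, by -4.88 and -3.36, and 1 of them was called higher in CiCM than in MEF, by 3.18.

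Thin-filament pointed ends are capped by tropomodulins and extended by leiomodins. Tmod1, a tropomodulin of heart but not of heart alone, read 11.45, 11.36 and 11.51 in CiCM, 12.91, 13.02 and 13.21 in CM and 7.79, 8.13 and 7.70 in MEF. Tmod4, a tropomodulin of skeletal muscle, read 12.06, 12.17 and 12.28 in CiCM, 9.22, 9.62 and 9.17 in CM and 4.80, 5.06 and 2.61 in MEF. No arrays overlapped between groups for either gene, and the order of the 2 muscle groups was reversed between them. Tmod1 was lower in CiCM than in CM by -1.61 (-1.89 to -1.33, limma adjusted p = 1.45e-06), and by -1.03 with levelled controls. Tmod4 was higher by 2.83 (1.70 to 3.96, limma adjusted p = 0.000644).

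Leiomodin genes were near the array floor in MEF and high in both muscle groups. Lmod2, the leiomodin most studied in heart, read 11.57, 11.49 and 11.64 in CiCM, 13.09, 13.37 and 13.56 in CM and 0.68, 1.68 and 5.44 in MEF. Lmod3, which skeletal muscle needs for its thin filaments, read 11.87, 12.00 and 12.18 in CiCM, 10.84, 11.61 and 11.64 in CM and 2.47, 1.34 and 1.72 in MEF. Arrays of the muscle groups did not overlap, with CiCM below CM for Lmod2 and above it for Lmod3. CiCM minus CM was -1.77 for Lmod2 (-3.80 to 0.26, limma adjusted p = 0.112), and it was called lower in the fit of those 2 groups alone (limma adjusted p = 8.61e-06). The same held without MEF replicate 3. For Lmod3 it was 0.65 (-0.01 to 1.31, limma adjusted p = 0.076), and 1.23 and called with levelled controls.

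Tropomyosins lie along actin filaments, and Tpm1, Tpm2 and Tpm3 each give rise to muscle and non-muscle forms. Their brightest probe sets read above the low-signal line in every group. In CiCM against MEF, Tpm1 differed by 0.39, Tpm2 by -0.57 and Tpm3 by -0.77, none of them called, although Tpm3 just reached the minimum with levelled controls. In CM against MEF Tpm2 was lower by -3.05 (-3.67 to -2.44, limma adjusted p = 2.80e-06) and Tpm3 by -1.64 (limma adjusted p = 1.28e-07). Tpm1 was higher by 1.30 (limma adjusted p = 8.44e-07), a call that was lost with quantile normalization (0.82), centred medians (0.94) and levelled controls (0.50). Tpm2 was higher in CiCM than in CM by 2.48 (limma adjusted p = 2.03e-05), with CM replicate 1 at 11.71 against 10.39 and 10.45 on the other CM arrays. CiCM minus CM was -0.92 for Tpm1, called without CM replicate 1 at -1.04, and 0.87 for Tpm3, called with centred medians (1.18) and levelled controls (1.44).

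Other probe sets of these genes gave other answers. Testing each probe set on its own was chosen after seeing the data. For Tpm3, 2 of 5 probe sets were higher in CiCM than in MEF, 1449996_a_at by 4.81 and 1449997_at by 5.42, and the same probe sets were higher than in CM by 5.51 and 5.04. Another 2 Tpm3 probe sets were called lower in CiCM than in MEF. For Tpm2, 1449577_x_at was 3.09 higher in CiCM than in MEF and 6.37 higher than in CM, and was lower in CM than in MEF by -3.28. All 4 Tpm2 probe sets were higher in CiCM than in CM. Over 22805 probe sets tested, 11.3% were higher and 12.7% lower in CiCM against MEF, 22% and 23.1% in CM against MEF, and 16.8% and 18.6% in CiCM against CM. For Tpm1, 1447713_at was higher than in MEF by 4.24 in CiCM and 7.60 in CM, while 1423721_at was lower by -4.31 in CM and differed by -0.75 in CiCM. A gene-level value for a tropomyosin therefore holds for its brightest probe set only.

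**Figure D2:**
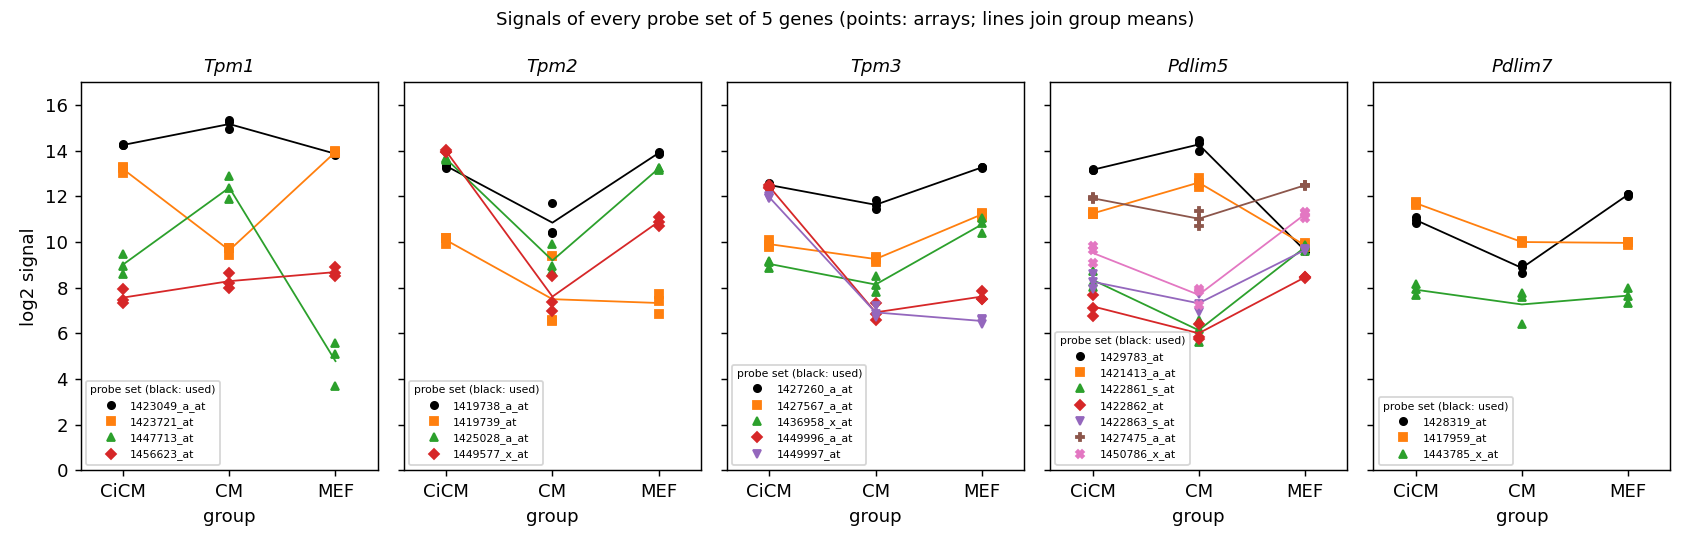
Log2 signal (vertical axis) of every probe set of Tpm1, Tpm2, Tpm3, Pdlim5 and Pdlim7 in CiCM, CM and MEF (horizontal axis); points are arrays, lines join group means, and black marks the probe set used for the gene. For Tpm3, 2 probe sets stand high in CiCM alone, and most Pdlim5 probe sets run against the black one.

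The Z-disc holds alpha-actinin, which cross-links thin filaments, and a large set of proteins bound to it. Of 14 tested Z-disc genes, 13 were higher and 1 lower in CiCM against MEF, with a median of 6.01, and 10 were higher and 2 lower in CM against MEF, with a median of 5.29. CiCM against CM gave 5 higher, 4 lower and 5 not called. Over all tested genes 11.6% were higher and 12.2% lower in CiCM against MEF. The shares were 22.1% and 21.8% in CM against MEF, and 16.5% and 19% in CiCM against CM. Actn2, the alpha-actinin of heart and all skeletal fibres, read 13.06, 13.20 and 13.40 in CiCM, 14.17, 14.66 and 14.64 in CM and 5.71, 2.64 and 5.70 in MEF. Its arrays did not overlap, CiCM standing below CM and far above MEF. CiCM minus CM was -1.27 (-2.72 to 0.18, limma adjusted p = 0.111), and in the fit of those 2 groups alone it was called lower (-1.63 to -0.90, limma adjusted p = 0.000174), as it was without MEF replicate 2. It stayed under the minimum size with quantile normalization (-0.96), centred medians (-0.96) and levelled controls (-0.69).

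Actn3, the alpha-actinin of fast skeletal fibres, gave one of the widest gaps between the muscle groups. Its signals were 13.71, 13.75 and 13.92 in CiCM, 6.88, 3.76 and 3.69 in CM and 6.56, 6.25 and 7.19 in MEF. Only the CiCM arrays were high, and CM replicate 1 lay within the MEF range. Actn3 was higher in CiCM by 7.13 against MEF (limma adjusted p = 1.24e-05) and by 9.02 against CM (7.49 to 10.55, limma adjusted p = 1.30e-06). CM minus MEF was -1.89 (-3.42 to -0.36, limma adjusted p = 0.0307), with the CM mean under the low-signal line and the MEF mean close to it. Without CM replicate 1 it was -2.94, and the call was lost, among other settings, without CM replicate 2 (-1.38) or 3 (-1.35), without MEF replicate 1 (-1.94) or 3 (-1.63), and with 32 added (-0.997).

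Calsarcins, the myozenin genes, bind alpha-actinin and the phosphatase calcineurin. Myoz1, of fast skeletal fibres, read 10.16, 10.31 and 10.66 in CiCM, 4.12, 4.56 and 7.01 in CM and 6.15, 6.89 and 5.11 in MEF. CM and MEF arrays overlapped, and all CiCM arrays were higher. Myoz1 was higher in CiCM than in CM by 5.15 (3.63 to 6.67, limma adjusted p = 7.26e-05). Against MEF, CM differed by -0.82, which was called lower without CM replicate 3 (-1.71) and with levelled controls (-1.62). Myoz2, of heart and slow fibres, read 13.34, 13.50 and 13.52 in CiCM, 14.30, 15.03 and 14.72 in CM and 4.97, 5.35 and 1.40 in MEF. It was high in both muscle groups without overlap between them. The difference of CiCM minus CM was -1.23 (limma adjusted p = 0.198), and it was called lower in the fit of those 2 groups alone (limma adjusted p = 0.000404) and without MEF replicate 3. It stayed under the minimum size with quantile normalization (-0.89), centred medians (-0.92) and levelled controls (-0.66). The untested Myoz3 read 5.65 to 5.88 in CiCM, 5.05 to 6.86 in CM and 5.63 to 6.11 in MEF, with all groups overlapping.

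Tcap encodes telethonin, which ties titin to the Z-disc. Its signals were 11.36, 11.24 and 11.03 in CiCM, 13.95, 14.01 and 14.62 in CM and 4.65, 5.31 and 6.11 in MEF. The 3 groups were fully separate, with CiCM between MEF and CM. Tcap was lower in CiCM than in CM by -2.98 (-3.67 to -2.30, limma adjusted p = 1.21e-05) and higher than in MEF by 5.85. Csrp3, the muscle LIM protein, was likewise between: 13.44, 13.20 and 12.83 in CiCM, 14.64, 15.18 and 15.09 in CM and 5.74, 5.67 and 2.88 in MEF. It was lower in CiCM than in CM by -1.82 (-3.17 to -0.46, limma adjusted p = 0.0236). That call was lost, among other settings, with quantile normalization (-1.49), centred medians (-1.51) and levelled controls (-1.24), and without CiCM replicate 2 (-1.84) or 3 (-1.65) or CM replicate 2 (-1.71) or 3 (-1.76).

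Myotilin, an actin-bundling protein of the Z-disc encoded by Myot, was higher in CiCM than in either other group. Its signals were 12.82, 12.54 and 12.60 in CiCM, 10.93, 10.16 and 10.22 in CM and 2.82, 0.66 and 1.83 in MEF. No arrays of different groups overlapped. The difference of CiCM was 10.89 from MEF (limma adjusted p = 2.25e-08) and 2.22 from CM (1.24 to 3.20, limma adjusted p = 0.00128), and CM minus MEF was 8.67, or 5.30 with 32 added.

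PDZ-LIM proteins bind alpha-actinin through a PDZ domain, and the 4 genes of this family did not move alike. Ldb3, the cardiac and skeletal Z-disc member also called Cypher, read 12.50, 12.46 and 12.61 in CiCM, 13.59, 13.61 and 13.70 in CM and 7.72, 7.84 and 7.52 in MEF. Pdlim3 read 12.65, 12.63 and 12.60 in CiCM, 10.83, 10.15 and 9.51 in CM and 6.80, 6.08 and 6.50 in MEF. Neither gene had overlapping groups, and CiCM stood below CM for Ldb3 and above it for Pdlim3. Pdlim3 was higher in CiCM than in CM by 2.46 (limma adjusted p = 2.63e-05). Ldb3 was lower by -1.11 (limma adjusted p = 3.08e-06), a call lost with quantile normalization (-0.92), centred medians (-0.80) and levelled controls (-0.53).

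Pdlim7, or Enigma, ran against most of the list, with 10.82, 11.11 and 10.98 in CiCM, 9.05, 8.65 and 8.90 in CM and 12.10, 12.10 and 12.04 in MEF. It was highest in MEF and lowest in CM, with no overlap, an order it shared with the brightest probe sets of Tpm2 and Tpm3. Pdlim7 was lower than in MEF by -1.11 in CiCM (limma adjusted p = 2.27e-05) and by -3.21 in CM (limma adjusted p = 3.49e-09), but another probe set, 1417959_at, was 1.74 higher in CiCM than in MEF and differed by 0.039 in CM. Pdlim5 was higher than in MEF by 3.53 in CiCM and 4.64 in CM on its brightest probe set. Of its 7 probe sets, 4 were called lower in CiCM than in MEF and 5 lower in CM than in MEF, so no direction holds for the gene as a whole. On the brightest one CiCM was lower than CM by -1.11, a call lost with quantile normalization (-0.80), centred medians (-0.80) and levelled controls (-0.54).

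Des, Flnc and Xirp1 connect the Z-disc to its surroundings. Desmin, the muscle intermediate filament, read 13.97, 14.00 and 14.06 in CiCM, 13.58, 13.85 and 14.02 in CM and 9.66, 9.68 and 9.47 in MEF. The muscle groups overlapped, and CiCM minus CM was 0.19 (-0.06 to 0.44, limma adjusted p = 0.154). Des was higher than in MEF by 4.40 in CiCM and 4.21 in CM. Filamin C, the muscle filamin encoded by Flnc, was higher in CiCM than in MEF by 1.70 (limma adjusted p = 1.01e-05). In CM it differed from MEF by 0.80, under the minimum difference, and by -0.01 with levelled controls. From CM, CiCM differed by 0.90, called with centred medians (1.21), levelled controls (1.48) and without CM replicate 3 (1.02). Xirp1, which encodes the actin-binding protein Xin, read 10.32 to 10.57 in CiCM, 10.85 to 11.42 in CM and 0.90 to 3.12 in MEF. Its difference from MEF was 8.71 in CiCM and 9.49 in CM, or 5.27 and 6.04 with 32 added.

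**Figure D3:**
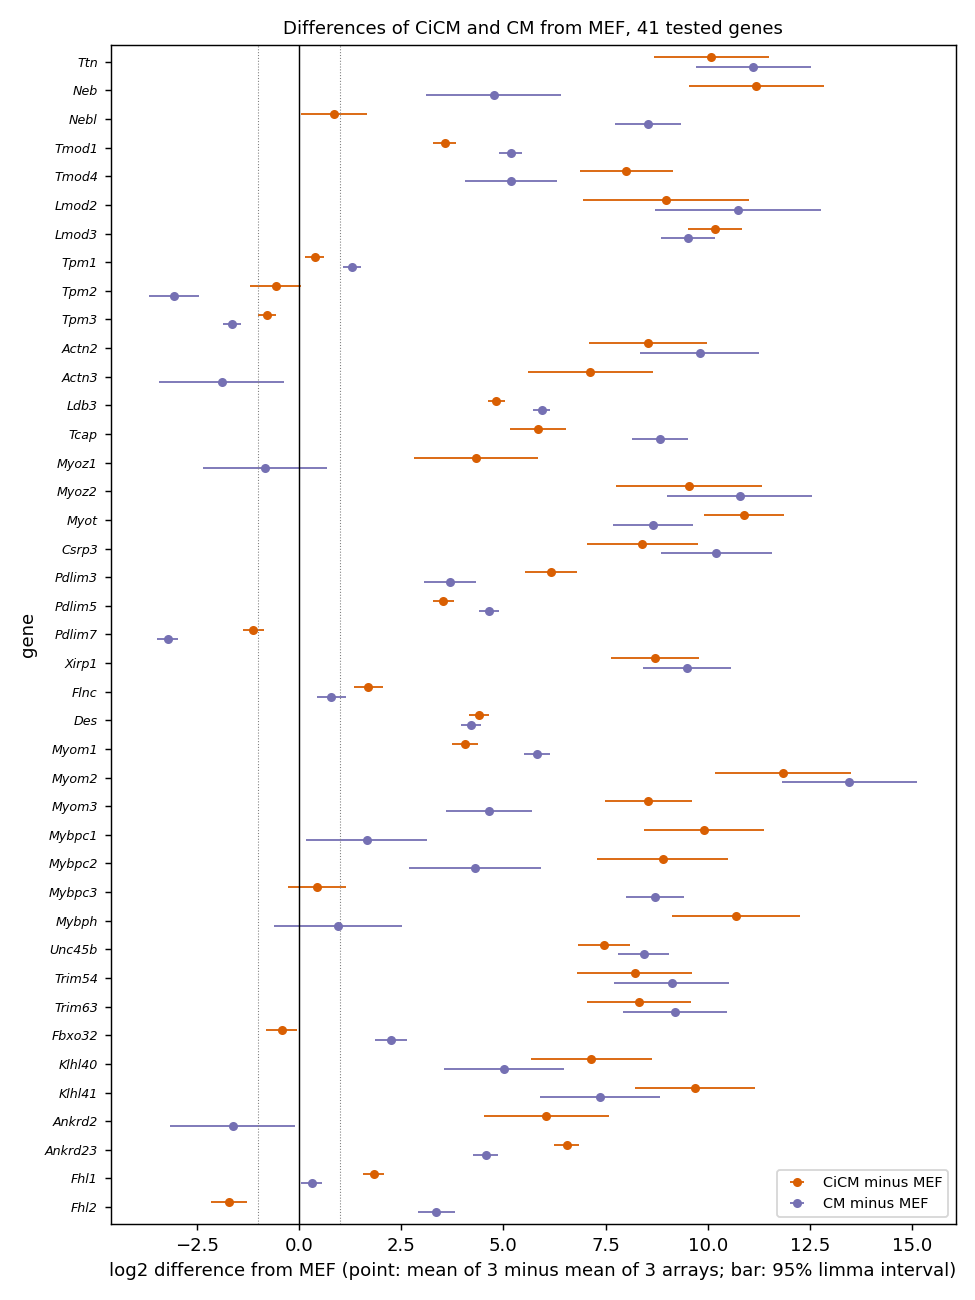
Log2 difference from MEF (horizontal axis) of 41 tested genes (vertical axis), for CiCM and for CM; points are differences of means over 3 arrays, bars are 95% limma intervals, and dotted lines mark -1 and 1. Nebl, Mybpc3 and Fhl2 lie to the right for CM and near or left of 0 for CiCM, and Actn3, Mybph, Myoz1 and Ankrd2 the other way round. Mybpc1 lies far to the right for CiCM and at 1.66 for CM.

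Thick filaments are held in register at the M-band by myomesins. Myom1, expressed in all striated muscle, read 12.33, 12.48 and 12.73 in CiCM, 13.94, 14.40 and 14.44 in CM and 8.42, 8.54 and 8.37 in MEF. Myom2, of heart and fast fibres, read 12.98, 13.10 and 13.51 in CiCM, 14.61, 15.04 and 14.83 in CM and 3.69, 0.00 and 0.39 in MEF. CiCM stood below CM without overlap for both genes, and both were far above MEF. Myom1 was lower in CiCM than in CM by -1.75 (limma adjusted p = 2.19e-06). For Myom2 the difference was -1.63 (-3.28 to 0.03, limma adjusted p = 0.0774), and it was called lower in the fit of those 2 groups alone (limma adjusted p = 5.53e-05) and without MEF replicate 1 or 2. On 2 of its 3 tested probe sets it was called lower. Its differences from MEF, 11.84 in CiCM and 13.47 in CM, were 8.01 and 9.63 with 32 added.

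Myom3, a myomesin of skeletal muscle, ran the other way. Its signals were 10.97, 10.79 and 11.16 in CiCM, 7.75, 7.03 and 6.46 in CM and 2.30, 3.42 and 1.56 in MEF. All 3 groups were separate, with CiCM highest. Myom3 was higher in CiCM than in CM by 3.89 (2.83 to 4.95, limma adjusted p = 4.07e-05). In CM it was higher than in MEF by 4.65, or 2.15 with 32 added, and with 4 times that constant it was 0.997 and not called.

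Myosin-binding protein C and its relative H lie along the thick filament and tune contraction, and the family has a slow skeletal (Mybpc1), a fast skeletal (Mybpc2) and a cardiac (Mybpc3) member. The widest differences between CiCM and CM in each direction in the fit of all 9 arrays were those of Mybph and Mybpc3, so sequence before the genes of this family is shown. The rank of Mybph rests on CM signals under the low-signal line: Actn3 was wider without CM replicate 1 (10.07, against 9.78 for Mybph) and with 4 times 32 added (6.40, against 6.36). RefSeq's table on GRCm38.p6 gives 250 bases before a transcript start. For these genes that start lies inside the annotated gene, by 30 bases for Mybph and Mybpc3, 46 for Mybpc2 and 77 for Mybpc1, and only the bases outside the gene are printed. Capitals mark matches, on either strand, to any of several motifs. The E-box, bound by myogenic factors of the MyoD family among others, was searched as CANNTG. The MCAT element, bound by TEAD factors, was searched as CATTCC, and the TATA box as TATAAA; the MEF2 and CArG consensus motifs were searched too. The printed stretch of Mybph lies at chr1:134193198-134193417 on the plus strand, and that of Mybpc1 at chr10:88605230-88605402 on the minus strand. The stretch of Mybpc2 lies at chr7:44524716-44524919 on the minus strand, and that of Mybpc3 at chr2:91117894-91118113 on the plus strand.
Mybph: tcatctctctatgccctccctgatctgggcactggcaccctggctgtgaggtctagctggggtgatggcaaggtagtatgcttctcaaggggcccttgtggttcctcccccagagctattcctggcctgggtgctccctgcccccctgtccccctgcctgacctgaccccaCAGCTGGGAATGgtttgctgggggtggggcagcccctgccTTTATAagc
Mybpc1: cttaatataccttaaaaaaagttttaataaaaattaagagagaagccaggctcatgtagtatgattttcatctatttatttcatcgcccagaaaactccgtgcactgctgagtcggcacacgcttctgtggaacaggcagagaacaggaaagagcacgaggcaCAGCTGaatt
Mybpc2: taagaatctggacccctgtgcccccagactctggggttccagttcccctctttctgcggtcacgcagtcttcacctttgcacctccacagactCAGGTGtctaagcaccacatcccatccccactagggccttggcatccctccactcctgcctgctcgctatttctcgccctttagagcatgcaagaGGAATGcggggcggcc
Mybpc3: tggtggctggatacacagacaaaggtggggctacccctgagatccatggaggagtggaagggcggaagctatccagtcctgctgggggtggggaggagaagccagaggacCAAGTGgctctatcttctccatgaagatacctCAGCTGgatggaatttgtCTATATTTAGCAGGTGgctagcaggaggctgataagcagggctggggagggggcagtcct
Counting back from the base next to the gene as -1, Mybph holds an E-box at -49 to -44 directly followed by an MCAT match at -43 to -38, and a TATA match at -9 to -4. Mybpc1 holds an E-box at -10 to -5, and Mybpc2 an E-box at -111 to -106 and an MCAT match at -16 to -11. Mybpc3, the only one of the 4 with a MEF2 match, has it at -60 to -51, directly followed by an E-box at -50 to -45, with further E-boxes at -110 to -105 and -78 to -73. No matches overlapped in these stretches. The 33 listed genes in RefSeq's table had 44 windows of 250 bases, of which 32 run into the annotated gene. An E-box was present in 34 of them (77.3%), against 66.2% of all 32851 windows. MEF2 matches were in 15.9% of the listed genes' windows and 2.92% of all windows, and CArG matches in 15.9% and 1.47%. The 7 windows with a MEF2 match belonged to 7 genes, and the 7 with a CArG match to 5. Overlapping windows of Ldb3 held the same CArG site, which was thus counted more than once. MCAT matches were in 22.7% of the listed genes' windows and 12.6% of all windows, and TATA matches in 13.6% and 12.4%. These are letter matches and not measured binding.

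Mybpc3 was the cardiac member of the family and the gene lowest in CiCM relative to CM. Its signals were 6.08, 6.86 and 5.88 in CiCM, 14.23, 14.70 and 14.67 in CM and 5.76, 5.26 and 6.46 in MEF. CiCM overlapped MEF around the low-signal line, and all CM arrays were high. Mybpc3 was lower in CiCM than in CM by -8.26 (-8.97 to -7.55, limma adjusted p = 1.33e-08), and CiCM minus MEF was 0.45 (-0.26 to 1.15, limma adjusted p = 0.266).

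The skeletal members showed the reverse. Mybpc1 read 13.57, 13.68 and 13.84 in CiCM, 4.73, 5.89 and 5.72 in CM and 2.17, 3.70 and 5.50 in MEF. Mybph read 13.51, 13.62 and 13.51 in CiCM, 3.88, 2.15 and 5.38 in CM and 3.78, 2.74 and 2.04 in MEF. For both genes only the CiCM arrays were high, and CM overlapped MEF under the low-signal line. Mybph was higher in CiCM than in CM by 9.74 (8.17 to 11.31, limma adjusted p = 8.72e-07), and Mybpc1 by 8.25 (6.78 to 9.72, limma adjusted p = 1.83e-06). CM minus MEF was 0.95 for Mybph, not called, and 1.66 for Mybpc1 (limma adjusted p = 0.0448), a call that was lost under 15 of the settings tried. It was 0.61 with 32 added and 0.85 without MEF replicate 1, and the call was kept without CM replicate 1 or MEF replicate 3 (2.51) and lost without any other single array. For Mybph, CM minus MEF was 1.78 and called higher without CM replicate 2.

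Mybpc2 read 12.87, 12.97 and 13.08 in CiCM and 7.42, 8.88 and 8.84 in CM, against 5.25, 4.97 and 2.01 in MEF. The groups did not overlap, and CM lay between CiCM and MEF. Mybpc2 was higher in CiCM than in CM by 4.59 (2.99 to 6.20, limma adjusted p = 0.000257). In CM it was higher than in MEF by 4.31, or 2.77 with 32 added. Unc45b, the myosin chaperone of striated muscle, read 11.60 to 11.80 in CiCM, 12.53 to 12.86 in CM and 3.70 to 5.03 in MEF. CiCM minus CM was -0.97, under the minimum difference (limma adjusted p = 0.012), and it reached the minimum without CiCM replicate 3 (-1.03), CM replicate 1 (-1.02) or CM replicate 2 (-1.03). Unc45b was higher than in MEF by 7.47 in CiCM and 8.43 in CM.

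**Figure D4:**
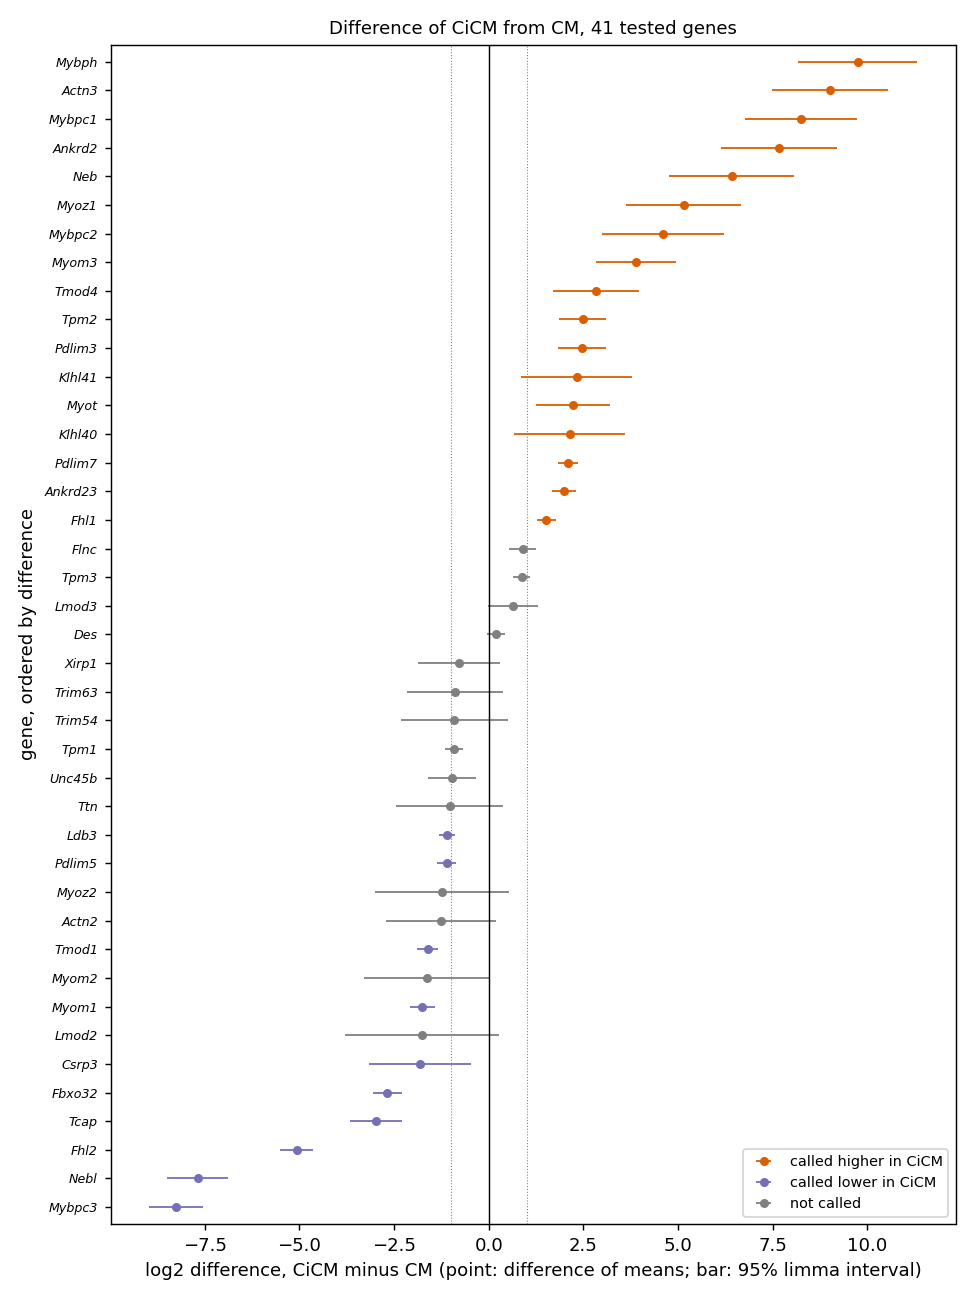
Log2 difference of CiCM minus CM (horizontal axis) of 41 tested genes (vertical axis, ordered by difference); points are differences of means over 3 arrays, bars are 95% limma intervals, and colours give the call. The differences run from 9.74 for Mybph to -8.26 for Mybpc3, and the bars of uncalled genes such as Lmod2 and Myoz2 are wide, the spread of MEF being part of the shared estimate.

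Among 9 tested turnover and signalling genes, 7 were higher and 1 lower in CiCM against MEF, 7 were higher in CM against MEF, and 5 were higher and 2 lower in CiCM against CM. The shares over all tested genes, higher and lower, were 11.6% and 12.2%, 22.1% and 21.8%, and 16.5% and 19% in that order. Trim63 and Trim54 encode ubiquitin ligases of the muscle RING finger family. Trim63 read 11.78 to 12.28 in CiCM, 12.53 to 13.10 in CM and 2.12 to 5.15 in MEF, and Trim54 read 11.03 to 11.11 in CiCM, 11.85 to 12.16 in CM and 1.29 to 4.71 in MEF. For both, CiCM arrays lay below CM arrays without overlap, by -0.88 and -0.91, which were not called. Fbxo32, the ubiquitin ligase component atrogin-1, was different, with 8.34, 9.09 and 9.03 in CiCM, 11.48, 11.46 and 11.54 in CM and 9.26, 9.25 and 9.23 in MEF. All CiCM arrays lay below MEF and all CM arrays above it. Fbxo32 was lower in CiCM than in CM by -2.67 (limma adjusted p = 3.93e-07), and CiCM minus MEF was -0.42 (limma adjusted p = 0.0619). The 2 other Fbxo32 probe sets were called lower in CiCM than in MEF, by -1.71 and -1.87. CM minus MEF was 2.25 (limma adjusted p = 7.31e-07), or 1.45 with levelled controls.

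Klhl40 and Klhl41 are kelch proteins of skeletal muscle, of which Klhl40 is known to stabilise nebulin and Lmod3. Klhl41 read 13.23, 13.23 and 13.40 in CiCM, 10.93, 10.78 and 11.18 in CM and 3.81, 1.70 and 5.27 in MEF. Klhl40 read 11.21, 11.30 and 11.43 in CiCM, 8.92, 9.31 and 9.29 in CM and 5.01, 2.11 and 5.36 in MEF. CiCM was highest and MEF lowest for both, with no overlap. They were higher in CiCM than in CM by 2.33 (limma adjusted p = 0.0101) and 2.14 (limma adjusted p = 0.0159).

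The ankyrin-repeat proteins Ankrd2 and Ankrd23 bind titin in the I-band and shuttle to the nucleus. Ankrd2 read 11.05, 11.14 and 11.22 in CiCM, 4.63, 3.75 and 2.02 in CM and 5.82, 5.69 and 3.74 in MEF. Only CiCM was high, and CM overlapped MEF. Ankrd2 was higher in CiCM than in CM by 7.67 (6.14 to 9.20, limma adjusted p = 4.13e-06). CM minus MEF was -1.62 (limma adjusted p = 0.0564), and it was called lower without CM replicate 1 (-2.20), without MEF replicate 3 (-2.29), and with quantile normalization (-1.93), centred medians (-1.99) or levelled controls (-2.42). Ankrd23 was higher than in MEF in both groups, by 6.55 in CiCM and 4.57 in CM, and higher in CiCM than in CM by 1.98 (limma adjusted p = 7.31e-07).

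Fhl1 and Fhl2 encode LIM-only proteins, Fhl1 prominent in skeletal muscle and Fhl2 in heart. Fhl1 read 14.43, 14.32 and 14.50 in CiCM, 13.16, 12.68 and 12.84 in CM and 12.56, 12.61 and 12.58 in MEF. It was highest in CiCM, and CM lay just above MEF, by 0.31, or -0.06 with centred medians and -0.49 with levelled controls. Fhl1 was higher in CiCM by 1.83 against MEF (limma adjusted p = 4.77e-07) and by 1.52 against CM (limma adjusted p = 1.10e-06). Averaged with its other probe set, which lay under the low-signal line in every group, it differed by 0.94 and 0.59 and was not called. Fhl2 read 10.30, 10.05 and 9.76 in CiCM, 14.62, 15.50 and 15.22 in CM and 11.77, 11.80 and 11.67 in MEF. Its order was CM, MEF and then CiCM, without overlap. Fhl2 was lower in CiCM by -1.71 against MEF (-2.16 to -1.26, limma adjusted p = 5.11e-05) and by -5.07 against CM (-5.52 to -4.63, limma adjusted p = 1.52e-08), and higher in CM than in MEF by 3.36 (limma adjusted p = 1.13e-07).

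Relatives of the listed genes used outside striated muscle included none that limma called higher in a muscle group than in MEF. In this list 15 genes were tested, and Fhl3 lay under the low-signal line. It includes Lmod1, the smooth muscle leiomodin, with the lowest CM minus MEF value of the list, -4.19. In CiCM against MEF 8 were lower, with a median of -1.13, and in CM against MEF 10 were lower, with a median of -1.61. Over all tested genes 12.2% and 21.8% were lower in these comparisons, and 11.6% and 22.1% higher. At an unadjusted p under 0.05, 0 were higher in either comparison. Actn1, a non-muscle alpha-actinin, was lower by -1.55 in CiCM and -3.78 in CM, and Csrp1, a LIM protein related to Csrp3, by -1.49 and -3.36. Vim, the fibroblast intermediate filament vimentin, read 13.66 to 13.80 in CiCM, 13.45 to 13.74 in CM and 14.79 to 14.84 in MEF. All muscle arrays lay below MEF, by -1.07 for CiCM and -1.23 for CM, while Des was higher in both. In CiCM against CM 4 of the relatives, Lmod1 among them, were higher and 1, Tmod2, was lower, against 16.5% and 19% of all tested genes. The 4 higher relatives became 8 with centred medians and 11 with levelled controls. Those scalings shifted all tested genes in this comparison by a median of 0.31 and 0.58. The summed smooth muscle markers given above, which also include Lmod1, were likewise highest in MEF and lowest in CM.

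Further sarcomere genes outside the 44 were also mostly higher than in MEF. Of 22 tested, limma called 16 higher and 0 lower in CiCM against MEF (1, Palld, was lower at an unadjusted p under 0.05), with a median of 2.77, and 17 were higher and 1, Obsl1, lower in CM against MEF, with a median of 3.36. Over all tested genes 11.6% and 22.1% were higher in these comparisons, and 12.2% and 21.8% lower. Synpo2l and Smpx, proteins of the Z-disc and of the costameres that tie it to the membrane, were higher in CiCM by 9.97 and 9.22 and in CM by 8.94 and 10.16. In CiCM against CM, 2 were higher and 9 lower, with a median of -0.57, against 16.5% and 19% of all tested genes. The 9 lower genes became 5 with centred medians and 3 with levelled controls. Those scalings shifted all tested genes in this comparison by a median of 0.31 and 0.58. The 2 higher genes were Capn3, the muscle calpain bound to titin, by 3.42 (limma adjusted p = 7.67e-07), and Obsl1, by 1.38. The lowest was Ablim1, an actin-binding LIM protein, by -3.17 (limma adjusted p = 2.37e-08).

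**Figure D5:**
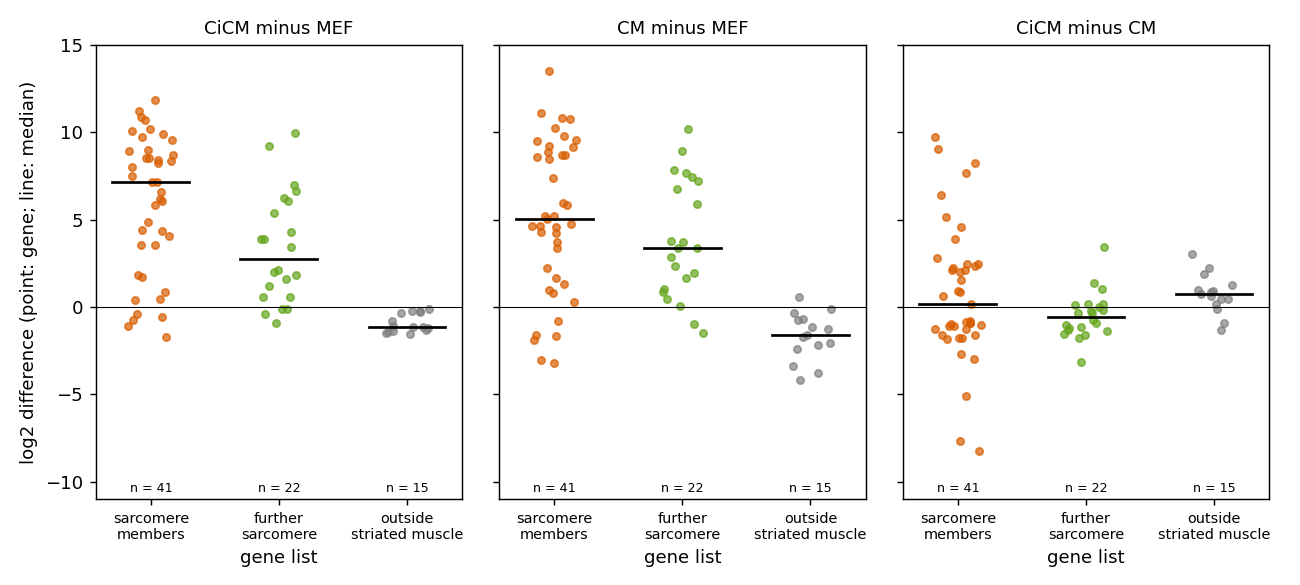
Log2 differences (vertical axis) of the listed sarcomere genes, further sarcomere genes and relatives outside striated muscle (horizontal axis) in CiCM minus MEF, CM minus MEF and CiCM minus CM; each point is a gene, the line is the median and n the genes tested. The sarcomere medians are 7.13, 5.02 and 0.19, and those of the relatives are -1.13, -1.61 and 0.74.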

How the data were processed

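Total RNA of 9 samples (3 CiCM, 3 CM, 3 MEF) was hybridised to 1-colour Affymetrix arrays after biotin labelling, as the labels' protocols state. The authors deposited log2 signals of 45101 probe sets. Per the submitters' processing notes the tool was MAS5, without a version; the log step and a genome build are not given in the sources used here. Trimmed by 2% at each end, linear signals averaged 500.003 on all arrays. The design provided for adding 32 to linear values; the values proved to be log2 already, so nothing was added.

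Gene names came from the platform annotation at GEO, possibly outdated; 34945 probe sets had 1 symbol, for 18193 genes, and the brightest stood for its gene. A gene was tested if any group mean reached 6.58, the table's median, which left 12559. Differences were tested 2-sided with limma (version 3.58.1, R 4.3.3; lmFit, eBayes with a variance trend) in 1 fit of all 9 arrays without covariates, with Benjamini-Hochberg adjustment over all genes tested; calls needed both an adjusted p below 0.05 and a difference of 1 or more in size. The fit was tested on simulated data with normal noise of the same spread in every group. That test cannot show how the unequal spreads of the groups affect the calls. An exact permutation test of 3 against 3 cannot go below p = 0.1, and precision is limited by this number of arrays. The labels call the arrays biological replicates without saying how cultures or animals were shared.

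Every listed gene with a probe set could be named, as could the further sarcomere genes and relatives used outside striated muscle; markers are named only beside what they move with. The genes and lists were chosen with earlier results of these data known. Alternatives were a constant of 1, 32 or 4 times 32 added, quantile normalization, centred medians, levelled hybridisation controls, other filters, mean over probe sets, 2 groups only, no variance trend, no minimum difference, the replicate block and leaving out each array. Same-numbered arrays of different groups did not deviate together (correlations -0.02 to 0.07), so numbers were not used as pairs. Upstream windows were read from RefSeq's table on GRCm38.p6; that build is the table's own, not one stated for the arrays.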

Additional observations from a re-analysis of the deposited data

Results flagged for a closer look

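Actn3 and Fhl2 moved in opposite directions from MEF in the 2 muscle groups, and the direct comparison of those groups was called. Actn3, the alpha-actinin of fast skeletal fibres, was higher than in MEF by 7.13 in CiCM and lower by -1.89 in CM, and the direct difference of CiCM minus CM was 9.02 (limma adjusted p = 1.30e-06), with every CiCM array above every CM array. The fall in CM concerns signals near the low-signal line and was lost under several settings. Fhl2, the LIM-only protein prominent in heart, was lower than in MEF by -1.71 in CiCM and higher by 3.36 in CM, and the direct difference was -5.07 (limma adjusted p = 1.52e-08), with every CiCM array below every MEF array and every CM array above them.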

How the results depend on the processing

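Counts of listed genes called were within 1.5 times of those reported under every alternative run. Without each array in turn, CiCM against MEF gave 33 to 34 higher and 2 lower, CM against MEF 31 to 32 higher and 3 to 5 lower, and CiCM against CM 17 to 18 higher and 9 to 13 lower. Of 2706 gene values under the alternatives other than single probe sets, 2596 kept their direction and their side of the threshold, 44 were no longer past it, 56 became so and 10 changed sign. Values that changed sign came from other probe sets, the mean over a gene's probe sets or, for Fhl1 and Flnc, from scaling; the cause was not tested. For CiCM minus MEF these were Tpm1 -0.75 and -1.12; Tpm2 1.42 (mean), 0.42, 2.75 and 3.09; Tpm3 1.29 (mean), 4.81 and 5.42; Pdlim5 -0.20 (mean), -1.43, -1.27, -1.39, -0.57 and -1.69; and Pdlim7 0.30 (mean), 1.74 and 0.26. For CM minus MEF they were Fhl1 -0.056 (centred medians) and -0.49 (levelled controls), Flnc -0.008 (levelled controls), Myoz1 0.45 (mean), Tpm1 -4.31 and -0.40, Tpm2 0.17, Tpm3 0.38, Pdlim5 -0.86 (mean), -3.63, -2.45, -2.33, -1.47 and -3.53, and Pdlim7 0.039. For CiCM minus CM they were Tpm1 3.55 and Pdlim5 0.66 (mean), 2.21, 1.18, 0.95, 0.90 and 1.84. The replicate numbers share only a label; with the replicate block, counts of listed genes were 33 and 2, 32 and 5, and 17 and 10 (higher and lower, in the order above), and 1 call changed, Ankrd2 becoming lower in CM against MEF at -1.62. Over all genes, calls were 2987, 5515 and 4462 in that order, against 6529, 8790 and 8089 with no minimum difference, and 1900 for CiCM against MEF with 4 times 32 added. Signals under the low-signal line, as for 28 of the 42 genes in MEF, limit what can be said of the size of a difference. With that constant, 21 of 35 called CiCM minus MEF values shrank by over 1.5 times. For CM minus MEF this held for 16 of 36 values. An added constant keeps the order of a gene's arrays, so it cannot test the direction where groups do not overlap.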
